A study of Mus musculus with 3 samples.

Results

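Glutamate and GABA receptors are the proteins through which neurons receive most of their excitatory and inhibitory signals. Of the 29917 genes named in the expression data of isolated mouse brain vessels, 43 encode subunits of these receptors. They were chosen by symbol alone: Gria, Grik or Grm with a digit, Grin with a digit and an optional letter from a to d, and Gabr with a letter and an optional digit. Each gene was read from its transcript row with the largest total count.

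The 3 libraries were made from brain vessels of mice aged 3 months: C57BL6 WT, C57BL6-BALB/c WT and Cx30-/-. The Cx30-/- mice lack connexin 30, a gap junction protein of astrocytes encoded by Gjb6, in every cell type and not in astrocytes alone. According to the methods, the mice were males and each library held the pooled vessels of 3 mice. For the Cx30-/- library the sample labels give a C57BL6 background, whereas the methods give a mixed C57BL6 and BALB/c background. With 1 library per group there is no spread between replicates to compare a difference with. The 95% intervals, written in square brackets after a log2 ratio, are exact binomial intervals of the counts. They cover counting error, and leave out how mice, preparations or backgrounds vary.

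AMPA, kainate and NMDA receptors are cation channels opened by glutamate, each assembled from subunits of its own family. The metabotropic glutamate receptors act through G proteins instead. GABA-A receptors are chloride channels, most often assembled from alpha, beta and gamma subunits, and they mediate fast inhibition. In brain tissue these genes are known mainly from neurons, although some, such as Grm3, Grm5 and Grin2c, are also known from astrocytes.

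Deposited counts summed to between 50375426 and 60725557 per library. Gjb6 had 2899 counts in C57BL6 WT, 2246 in C57BL6-BALB/c WT and 96 in the library labelled Cx30-/-. The tissue label was checked against 8 endothelial genes, all measured in every library, whose normalized counts summed to 141739 in C57BL6 WT, 89438 in C57BL6-BALB/c WT and 172703 in Cx30-/- vessels. The vessel preparations also held neuronal RNA: all 10 genes of a neuron list were measured in every library, and their sums were 63176, 85125 and 47659.5 normalized counts in the same order. None of these 18 marker genes was at 0 in a library. Of the 2 genes that mark the receptor set, Gria2 was the most abundant receptor transcript per kilobase and Grin2a the least abundant of those that passed the count minimum.

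Counts were divided by a size factor per library, and a gene was compared when its mean over the 3 libraries reached 50 normalized counts. Of the 43 receptor genes, 37 passed this minimum. The lowest mean among them was 58.0 (Grin2a), and the highest among the others was 35.6 (Gabrr2). The 6 genes below it were Gabra6 with 5, 4 and 2 raw counts in the C57BL6 WT, C57BL6-BALB/c WT and Cx30-/- libraries, Gabrp with 3, 9 and 1, Gabrr1 with 23, 6 and 14, Gabrr2 with 36, 31 and 40, Gabrr3 with 8, 3 and 1 and Grm6 with 0, 1 and 2. Gabra6 is a subunit typical of cerebellar granule cells, the rho subunits (Gabrr1 to Gabrr3) and Grm6 are best known from the retina, and Gabrp is known from tissues outside the brain. No ratio is given for these genes.

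Promoter windows of the receptor genes are described beside those of all genes. Windows of lower and not-lower genes were not compared as groups, and no link to the ratios was tested. RefSeq windows of 250 bases before to 50 bases after the start (build GRCm38.p6) were matched by symbol for 30 of the 43 genes. The windows of 5 genes follow: Gria2 and Grin1 as the transcripts with the highest levels per kilobase, Grm2 and Gabra4 as genes at least 2-fold lower in Cx30-/- than in C57BL6-BALB/c WT vessels, and Gabre as a gene that was not lower. Their starts lie 0 (Gria2 and Gabra4), 92 (Grin1), 29 (Grm2) and 82 (Gabre) bases from the start of the counted transcript. Capitals mark GGGCGG or its reverse complement CCGCCC, the core of the GC box bound by Sp1, and TTCAGCACC, the left part of the element bound by REST, a repressor of neuronal genes outside neurons.
Gria2 (chr3:80802786-80803085, minus strand): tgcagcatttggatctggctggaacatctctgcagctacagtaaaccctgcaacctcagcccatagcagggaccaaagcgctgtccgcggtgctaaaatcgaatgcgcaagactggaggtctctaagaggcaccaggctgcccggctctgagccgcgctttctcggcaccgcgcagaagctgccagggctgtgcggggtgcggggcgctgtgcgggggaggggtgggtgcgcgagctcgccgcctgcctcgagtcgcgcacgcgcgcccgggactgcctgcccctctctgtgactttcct
Grin1 (chr2:25319138-25319437, minus strand): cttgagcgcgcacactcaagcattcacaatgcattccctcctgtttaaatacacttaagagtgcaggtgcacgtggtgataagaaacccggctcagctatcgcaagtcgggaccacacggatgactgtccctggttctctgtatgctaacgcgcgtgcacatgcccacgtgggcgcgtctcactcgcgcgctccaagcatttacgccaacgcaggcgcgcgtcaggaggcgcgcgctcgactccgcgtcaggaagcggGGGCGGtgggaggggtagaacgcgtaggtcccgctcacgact
Grm2 (chr9:106656060-106656359, minus strand): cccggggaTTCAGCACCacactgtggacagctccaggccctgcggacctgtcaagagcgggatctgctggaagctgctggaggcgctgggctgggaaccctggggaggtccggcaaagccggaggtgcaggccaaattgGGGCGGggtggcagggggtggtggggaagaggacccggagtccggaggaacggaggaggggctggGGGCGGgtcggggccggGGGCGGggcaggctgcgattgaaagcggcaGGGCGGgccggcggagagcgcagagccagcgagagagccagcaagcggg
Gabra4 (chr5:71658259-71658558, minus strand): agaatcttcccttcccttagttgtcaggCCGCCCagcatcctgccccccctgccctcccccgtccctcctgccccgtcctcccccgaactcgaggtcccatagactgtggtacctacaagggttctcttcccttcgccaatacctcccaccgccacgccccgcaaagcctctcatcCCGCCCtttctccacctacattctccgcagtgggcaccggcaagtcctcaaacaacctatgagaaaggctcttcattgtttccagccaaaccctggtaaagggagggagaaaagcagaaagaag
Gabre (chrX:72274672-72274971, minus strand): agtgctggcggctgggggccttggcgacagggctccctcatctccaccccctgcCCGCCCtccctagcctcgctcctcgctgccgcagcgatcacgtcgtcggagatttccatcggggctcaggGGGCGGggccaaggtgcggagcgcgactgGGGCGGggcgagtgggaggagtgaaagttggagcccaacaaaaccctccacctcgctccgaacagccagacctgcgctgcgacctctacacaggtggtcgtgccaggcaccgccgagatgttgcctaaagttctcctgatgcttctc

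The Grm2 window held 4 GC boxes and the only TTCAGCACC found in the windows of the 30 genes. Gabre held 3 GC boxes, Gabra4 held 2, Grin1 held 1 and Gria2 none. Over all 32851 windows, GGGCGG on either strand was found in 35.7%, and in 17 of the 37 windows of receptor genes (45.9%). TTCAGCACC on either strand was found in 0.371% of all windows. TATAAA on either strand was found in 13.6% of all windows and in 4 of the 37 of receptor genes. CG dinucleotides numbered 26 in Gria2, 33 in Grin1, 22 in Grm2, 12 in Gabra4 and 24 in Gabre, beside a median of 11 over the windows of receptor genes and 7 over all windows. These matches describe the letters in the windows only.

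Levels between genes were compared per kilobase of counted transcript. Their means over the 3 libraries ran from 12.03 normalized counts per kilobase for Grin2a to 2253 for Gria2. Gria2 was followed by Grin1 (1904), Gria1 (1536), Gria3 (1506) and Grik5 (1283). The highest metabotropic receptor was Grm5 (582) and the highest GABA-A subunit was Gabrd (657). For 6 genes the counted transcript held less than 50% of the bases of the longest annotated one. Among these were Grin2a with 4820 of 14634 bases and Grin2b with 7484 of 24060 bases, so that reads on the rest of these transcripts were not in their counts.

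**Figure D1:**
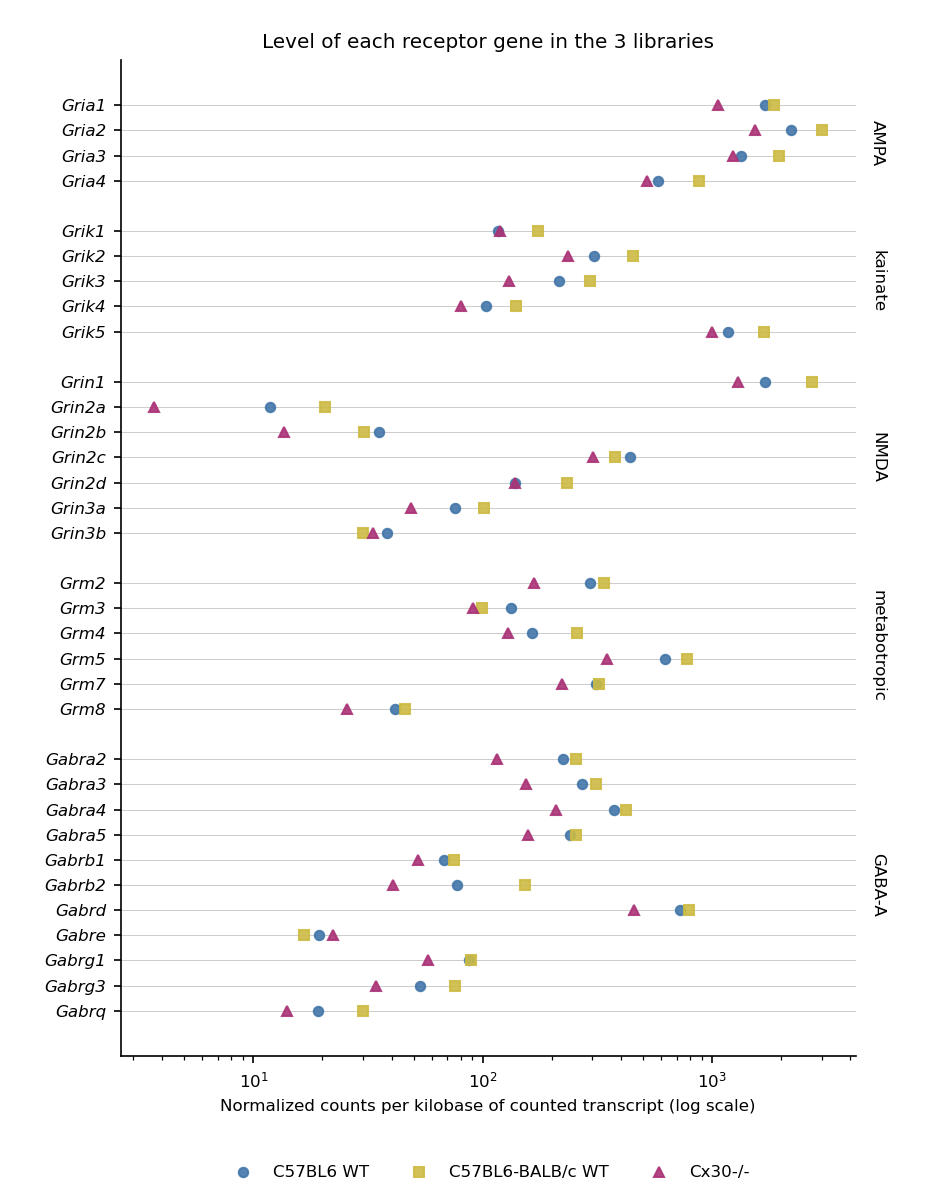
Normalized counts per kilobase of counted transcript (x axis, log scale) of 33 receptor genes that passed the count minimum (y axis), with 1 point per library: blue circles for C57BL6 WT, yellow squares for C57BL6-BALB/c WT and purple triangles for Cx30-/-. AMPA subunits and Grin1 lie at the right and Grin2a at the far left, and most purple triangles lie to the left of both WT points.

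The comparison with each WT library asked how the receptor transcripts differed between vessels without and with Cx30. Against C57BL6 WT, 2 of the 37 genes were at least 2-fold lower in Cx30-/- vessels (Grin2a and Grin2b) and 0 were at least 2-fold higher. Over all 14542 genes that passed the minimum, 1.12% were at least 2-fold lower and 1.07% at least 2-fold higher. The median log2 ratio of the receptor genes was -0.61, beside -0.01 over all genes, and 34 of the 37 were lower by any amount, beside 51.0% of all genes. The 3 that were not lower were Gabre (0.20), Grik1 (0.02) and Grin2d (0.01). For 32 of the 37 genes the whole interval of the ratio lay below 0, and for 0 it lay above. The shares of all genes with whole intervals below 0, above 0 or past 2-fold were not counted, in this or the next 2 comparisons. These intervals cover counting error only. The neuron genes of the list above were also lower in this comparison, with a median of -0.37. In bulk libraries like these, fewer neuronal fragments in a preparation and less receptor RNA per neuron cannot be told apart.

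Against C57BL6-BALB/c WT, 16 of the 37 genes were at least 2-fold lower in Cx30-/- vessels and 0 were at least 2-fold higher, beside 4.39% of all genes at least 2-fold lower and 3.45% at least 2-fold higher. The median log2 ratio was -0.94 for the receptor genes and 0.00 over all genes. All but 2 of the 37 were lower by any amount, the exceptions being Gabre (0.42) and Grin3b (0.15), beside 49.7% of all genes. The whole interval lay past 2-fold for 6 of the 16, among them Grin2a, Gabrb2, Grik3, Grm5 and Grin1. Gabra3 stood at the threshold with a log2 ratio of -1.0002, and Gria2 stood just short of it with -0.98. The 2 comparisons share the Cx30-/- library and are not independent of each other.

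**Figure D2:**
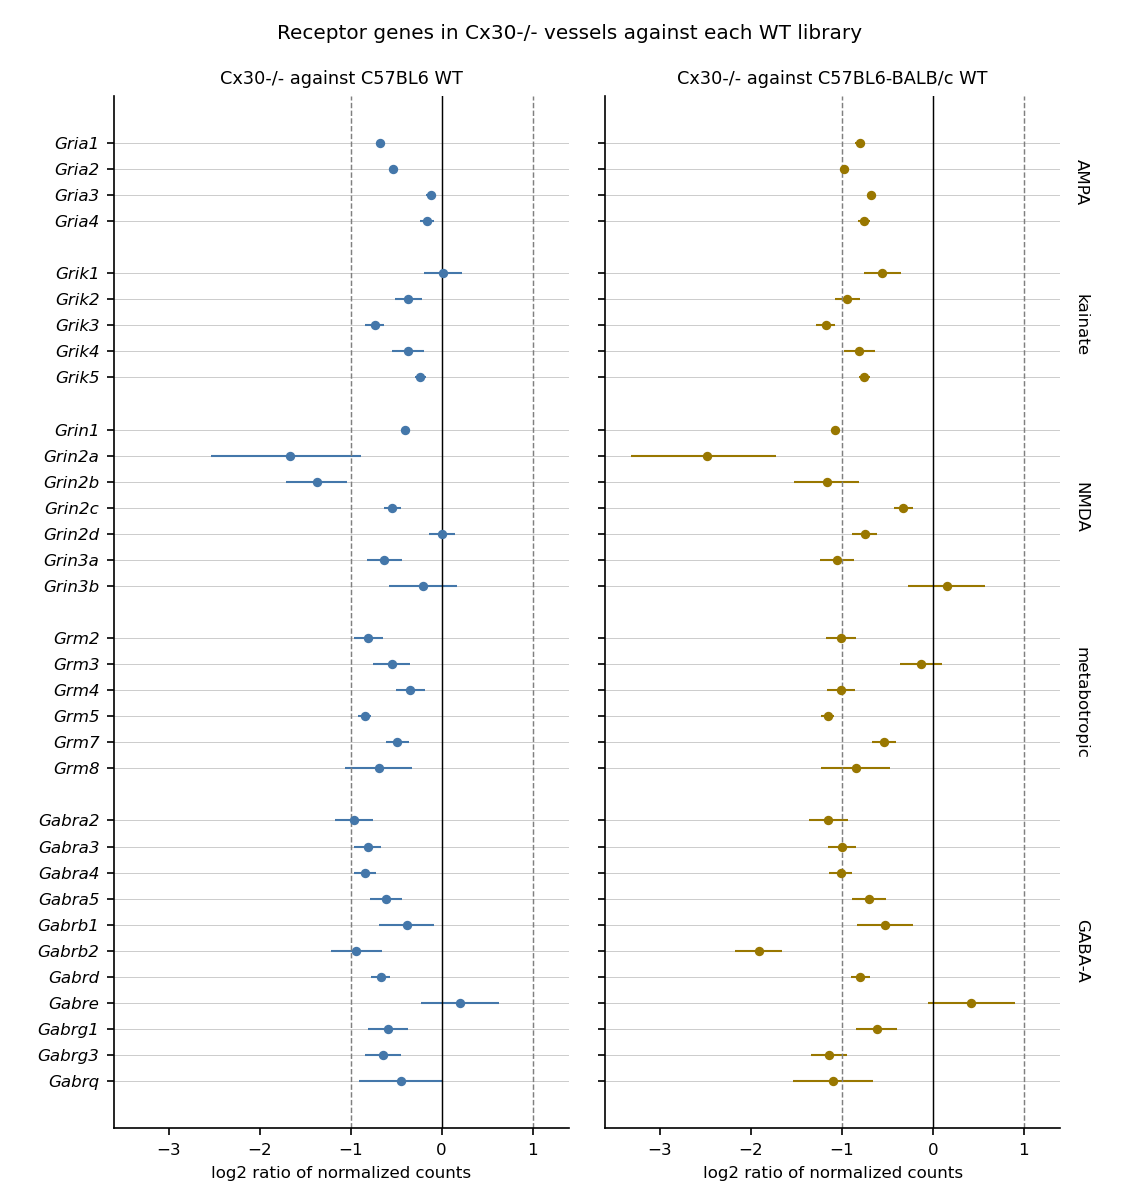
Log2 ratio of normalized counts (x axis) in Cx30-/- vessels against C57BL6 WT (left) and against C57BL6-BALB/c WT (right) for the same 33 receptor genes (y axis). Points are ratios of 1 library to 1 library, bars are 95% exact binomial intervals covering read sampling only, and dashed lines mark 2-fold. On the left, Grin2a and Grin2b lie past the lower dashed line, and on the right 14 of those drawn do.

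The WT libraries differed from each other in the opposite direction. The median log2 ratio of C57BL6-BALB/c WT against C57BL6 WT was 0.24 for the receptor genes and 0.00 over all genes. By any amount, 31 were higher and 6 lower in C57BL6-BALB/c WT vessels, beside 50.3% of all genes that were lower, and for 26 the whole interval lay above 0. Of the 37 receptor genes, 0 differed at least 2-fold, beside 1.88% of all genes at least 2-fold lower and 1.15% at least 2-fold higher. The difference nearest to 2-fold was that of Gabrb2, with a log2 ratio of 0.98 [0.78, 1.17]. Background, mice and vessel preparation all changed between these libraries and cannot be told apart.

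Grin2a, a glutamate-binding NMDA receptor subunit, showed the largest difference of the set in each comparison with Cx30-/- (ENSMUSG00000059003; GRCm38 chromosome 16, 9567898 to 9995560, minus strand). It had 65, 92 and 17 raw counts in C57BL6 WT, C57BL6-BALB/c WT and Cx30-/- vessels, or 56.8, 99.4 and 17.8 normalized counts. The Cx30-/- library was the lowest of the 3. Its log2 ratios were -1.67 [-2.53, -0.88] against C57BL6 WT and -2.48 [-3.32, -1.72] against C57BL6-BALB/c WT. These rest on few reads: 65.8%, 58.7% and 86.7% of the counted bases had no read in the C57BL6 WT, C57BL6-BALB/c WT and Cx30-/- libraries.

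Grin2b, the glutamate-binding subunit that prevails early in development (ENSMUSG00000030209; chromosome 6, 135713233 to 136173511, minus strand), had 263 in C57BL6 WT, 228 in C57BL6-BALB/c WT and 102 normalized counts in Cx30-/- vessels. It was the only other gene at least 2-fold lower against C57BL6 WT, with a log2 ratio of -1.37 [-1.71, -1.03], and stood at -1.16 [-1.53, -0.81] against C57BL6-BALB/c WT. The WT libraries were close for this gene, at -0.21 [-0.47, 0.05]. Grin1, the subunit that every NMDA receptor contains (ENSMUSG00000026959; chromosome 2, 25291181 to 25319187, minus strand), had 7289.6 in C57BL6 WT, 11603 in C57BL6-BALB/c WT and 5526 normalized counts in Cx30-/- vessels. Its log2 ratio was -0.40 [-0.45, -0.35] against C57BL6 WT and -1.07 [-1.12, -1.02] against C57BL6-BALB/c WT, and the C57BL6-BALB/c WT library stood apart from both others. In the annotation, 30.6% of the exon bases of Grin1 also belong to the antisense gene Grin1os. Since the libraries did not keep strand, reads of these 2 genes cannot be told apart there.

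The glycine-binding subunit Grin3a had 564 in C57BL6 WT, 756 in C57BL6-BALB/c WT and 365 normalized counts in Cx30-/- vessels, with log2 ratios of -0.63 [-0.82, -0.44] and -1.05 [-1.24, -0.86] against the C57BL6 WT and C57BL6-BALB/c WT libraries. Grin2c and Grin2d, the other 2 glutamate-binding subunits, differed less. In C57BL6 WT, C57BL6-BALB/c WT and Cx30-/- vessels, Grin2c had 2152, 1851 and 1479 normalized counts and Grin2d had 748, 1263 and 751. For Grin2d the Cx30-/- and C57BL6 WT libraries were within the counting error, with a log2 ratio of 0.01 [-0.14, 0.15], and the C57BL6-BALB/c WT library was higher. Grin3b, with 126, 98.3 and 109, was lowest in C57BL6-BALB/c WT vessels, and 31.9% of its exon bases are shared with Tmem259 on the opposite strand.

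The make-up of the NMDA receptor counts differed between libraries as well. As shares of the counts of the 7 Grin genes, without correction for length, Grin2a took 0.507%, 0.625% and 0.214% in the C57BL6 WT, C57BL6-BALB/c WT and Cx30-/- libraries. Grin2b took 2.35%, 1.43% and 1.22% and Grin2c 19.2%, 11.6% and 17.7% in the same order. Grin1 took 65.1%, 73.0% and 66.2%. The Cx30-/- share of Grin2a had a 95% interval of 0.124% to 0.342%, below those of C57BL6 WT (0.391% to 0.646%) and C57BL6-BALB/c WT (0.504% to 0.766%). For Grin1 and Grin2c, in contrast, the C57BL6-BALB/c WT library stood apart and the Cx30-/- share was closer to that of C57BL6 WT.

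**Figure D3:**
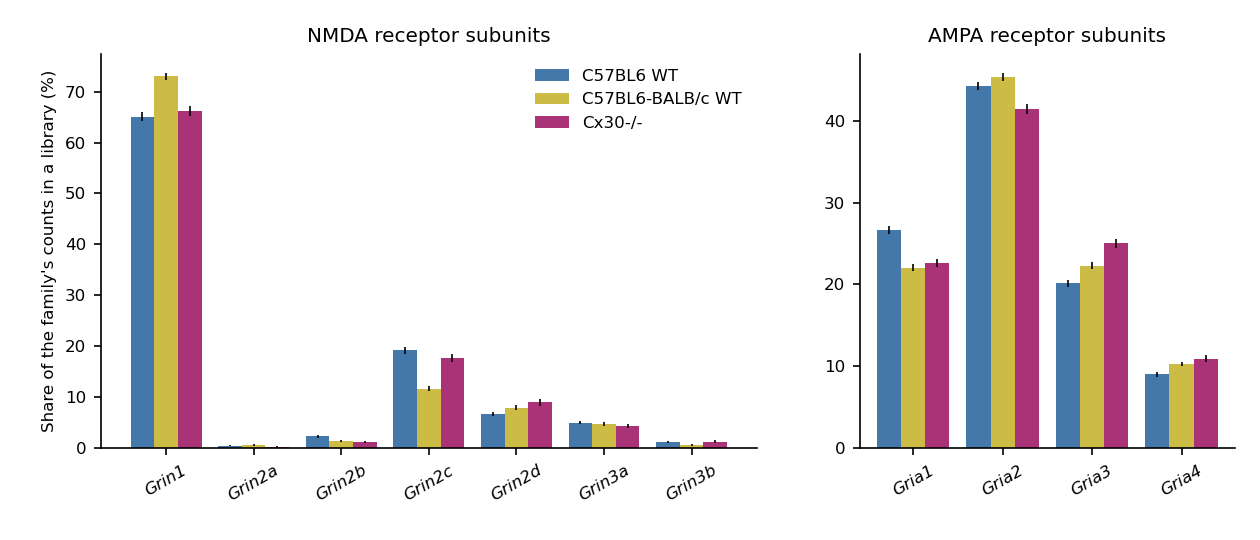
Share of the counts of the 7 NMDA receptor genes (left) and of the 4 AMPA receptor genes (right) taken by each gene (y axis, percent, starting at 0) in each library. Error bars are 95% exact binomial intervals covering read sampling only; the C57BL6-BALB/c WT bar of Grin1 reaches 73.0%, above 65.1% and 66.2% in the other libraries.

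The AMPA receptor genes held 3 of the 4 most abundant receptor transcripts per kilobase, and none reached a 2-fold difference. Gria2, whose edited subunit makes AMPA channels nearly impermeable to calcium (ENSMUSG00000033981; chromosome 3, 80681450 to 80802835, minus strand), had 15136 in C57BL6 WT, 20612 in C57BL6-BALB/c WT and 10480.0 normalized counts in Cx30-/- vessels. It was lowest in the Cx30-/- library, with log2 ratios of -0.53 [-0.57, -0.49] and -0.98 [-1.01, -0.94] against C57BL6 WT and C57BL6-BALB/c WT, and highest in C57BL6-BALB/c WT. Gria1 had 9129, 10013 and 5731 normalized counts in the order C57BL6 WT, C57BL6-BALB/c WT and Cx30-/-, Gria3 had 6891, 10130.4 and 6343, and Gria4 had 3095, 4673 and 2767. Against C57BL6 WT, Gria1 had a log2 ratio of -0.67 [-0.72, -0.62]. Gria3 and Gria4 stood nearer to 0, at -0.12 [-0.17, -0.07] and -0.16 [-0.23, -0.09], and their intervals do not overlap that of Gria1. Against C57BL6-BALB/c WT these genes were closer together. Gria1 stood at -0.80 [-0.85, -0.76], Gria3 at -0.68 [-0.72, -0.63] and Gria4 at -0.76 [-0.83, -0.69], which overlaps Gria1. As a share of the AMPA receptor counts, Gria1 took 26.7%, 22.0% and 22.6% and Gria3 took 20.1%, 22.3% and 25.05%.

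Of the kainate receptor genes, Grik3 was at least 2-fold lower against C57BL6-BALB/c WT. Grik3, which encodes a subunit of low glutamate affinity (ENSMUSG00000001985; chromosome 4, 125490700 to 125714173, plus strand), had 1929 in C57BL6 WT, 2624 in C57BL6-BALB/c WT and 1161 normalized counts in Cx30-/- vessels, with log2 ratios of -0.73 [-0.84, -0.63] against C57BL6 WT and -1.18 [-1.28, -1.07] against C57BL6-BALB/c WT. Grik5, a subunit that works only together with Grik1, Grik2 or Grik3, was the most abundant of the family per kilobase (ENSMUSG00000003378; chromosome 7, 25009849 to 25072346, minus strand). It had 4377 in C57BL6 WT, 6277 in C57BL6-BALB/c WT and 3723 normalized counts in Cx30-/- vessels, and its log2 ratios were -0.23 [-0.30, -0.17] and -0.75 [-0.81, -0.69]. For Grik5 the Cx30-/- and C57BL6 WT libraries were closer to each other than either was to C57BL6-BALB/c WT. Grik1 had 348, 517 and 352 normalized counts in C57BL6 WT, C57BL6-BALB/c WT and Cx30-/- vessels, Grik2 had 857, 1277 and 666, and Grik4 had 607, 825 and 471. These 3 genes had log2 ratios of 0.02, -0.36 and -0.37 against C57BL6 WT and of -0.55, -0.94 and -0.81 against C57BL6-BALB/c WT.

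Among the metabotropic receptors, Grm5, which belongs to group I and couples to phospholipase C, was at least 2-fold lower against C57BL6-BALB/c WT. Grm5 (ENSMUSG00000049583; chromosome 7, 87584168 to 88134907, plus strand) had 4306 in C57BL6 WT, 5336 in C57BL6-BALB/c WT and 2398 normalized counts in Cx30-/- vessels, and its log2 ratios were -0.84 [-0.92, -0.77] against C57BL6 WT and -1.15 [-1.23, -1.08] against C57BL6-BALB/c WT. The Cx30-/- library was the lowest, and the WT libraries differed from each other by less than either did from it.

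Group II holds Grm2 and Grm3, inhibitory receptors that can lower transmitter release. These genes stood apart from each other in the comparison with C57BL6-BALB/c WT. Grm2 (ENSMUSG00000023192; chromosome 9, 106643095 to 106656082, minus strand) had 864 in C57BL6 WT, 995 in C57BL6-BALB/c WT and 494 normalized counts in Cx30-/- vessels, giving log2 ratios of -0.81 [-0.97, -0.65] and -1.01 [-1.17, -0.85] against C57BL6 WT and C57BL6-BALB/c WT. Grm3 had 469 in C57BL6 WT, 351 in C57BL6-BALB/c WT and 321 normalized counts in Cx30-/- vessels, with log2 ratios of -0.55 [-0.75, -0.34] and -0.13 [-0.36, 0.10], so that its Cx30-/- and C57BL6-BALB/c WT values were not distinguishable at this depth. In group III, which also lowers transmitter release, Grm4 (ENSMUSG00000063239; chromosome 17, 27422387 to 27521403, minus strand) had 739.6 in C57BL6 WT, 1173 in C57BL6-BALB/c WT and 583 normalized counts in Cx30-/- vessels. Its log2 ratio was -0.34 [-0.50, -0.19] against C57BL6 WT and -1.01 [-1.16, -0.86] against C57BL6-BALB/c WT. Grm7 had 1216, 1257 and 868 normalized counts in the 3 libraries and Grm8 had 159, 177 and 98.6. They had log2 ratios of -0.49 and -0.69 in the former comparison and of -0.54 and -0.85 in the latter.

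Among the GABA-A alpha subunits, which shape GABA affinity and drug binding, Gabra2, Gabra3 and Gabra4 were at least 2-fold lower against C57BL6-BALB/c WT. Gabra2 (ENSMUSG00000000560; chromosome 5, 70957597 to 71095849, minus strand) had 535 in C57BL6 WT, 609 in C57BL6-BALB/c WT and 275 normalized counts in Cx30-/- vessels, with log2 ratios of -0.96 [-1.18, -0.75] and -1.15 [-1.37, -0.93] against C57BL6 WT and C57BL6-BALB/c WT. Gabra3 (ENSMUSG00000031343; chromosome X, 72432681 to 72656848, minus strand) had 995 in C57BL6 WT, 1135 in C57BL6-BALB/c WT and 568 normalized counts in Cx30-/- vessels, with log2 ratios of -0.81 [-0.96, -0.66] and -1.0002 [-1.15, -0.85]. Gabra4 (ENSMUSG00000029211; chromosome 5, 71569749 to 71658308, minus strand) had 1535 in C57BL6 WT, 1727 in C57BL6-BALB/c WT and 855 normalized counts in Cx30-/- vessels, with log2 ratios of -0.84 [-0.97, -0.72] and -1.01 [-1.14, -0.89]. In all 3 genes the WT libraries were near each other and the Cx30-/- library was the lowest. The same order held for Gabra5, which is known mainly from the hippocampus, with 634, 674 and 415 normalized counts.

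Of the beta subunits, which are needed for GABA to bind, Gabrb2 was further from C57BL6-BALB/c WT than Gabrb1. Gabrb2 (ENSMUSG00000007653; chromosome 11, 42419757 to 42629028, plus strand) had 309 in C57BL6 WT, 608 in C57BL6-BALB/c WT and 162 normalized counts in Cx30-/- vessels. Its log2 ratio was -0.94 [-1.22, -0.66] against C57BL6 WT but -1.91 [-2.18, -1.65] against C57BL6-BALB/c WT, and the WT libraries themselves differed by 0.98 on the log2 scale. Gabrb1, which overlaps Gabra4 on the opposite strand by 46 exon bases, had 209.6, 231 and 161 normalized counts, its log2 ratios being -0.38 [-0.69, -0.09] and -0.53 [-0.84, -0.22].

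The gamma subunit Gabrg3 (ENSMUSG00000055026; chromosome 7, 56716465 to 57387188, minus strand) had 521 in C57BL6 WT, 738 in C57BL6-BALB/c WT and 335 normalized counts in Cx30-/- vessels, with log2 ratios of -0.64 [-0.84, -0.44] against C57BL6 WT and -1.14 [-1.34, -0.95] against C57BL6-BALB/c WT. Gabrg1 had 414, 423 and 276 normalized counts. Gabrd, the delta subunit of receptors outside synapses (ENSMUSG00000029054; chromosome 4, 155384980 to 155398112, minus strand), had 1961 in C57BL6 WT, 2142 in C57BL6-BALB/c WT and 1234 normalized counts in Cx30-/- vessels, with log2 ratios of -0.67 [-0.77, -0.57] and -0.80 [-0.90, -0.69]. It was lowest in the Cx30-/- library, but short of 2-fold in both comparisons.

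The theta subunit Gabrq (ENSMUSG00000031344; chromosome X, 72825178 to 72842602, plus strand) had 94.3 in C57BL6 WT, 148 in C57BL6-BALB/c WT and 69.2 normalized counts in Cx30-/- vessels. Its log2 ratio against C57BL6 WT was -0.45 [-0.91, 0.01], with an interval that reaches 0, and against C57BL6-BALB/c WT it was -1.10 [-1.54, -0.66]. Its neighbour Gabre, the epsilon subunit, was the exception of the set. Gabre had 83.0 in C57BL6 WT, 71.3 in C57BL6-BALB/c WT and 95.5 normalized counts in Cx30-/- vessels, and was highest in the Cx30-/- library, although the intervals of both log2 ratios, 0.20 [-0.23, 0.63] and 0.42 [-0.05, 0.90], hold 0.

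Most GABA-A genes lie in clusters, and on chromosomes 5 and X the members of a cluster did not all stand at the same ratio. Not every cluster is described here. On chromosome 5, over 1398 kb, Gabrg1 and Gabrb1 at the ends stood at -0.59 and -0.38, and Gabra2 and Gabra4 between them at -0.96 and -0.84, against C57BL6 WT. On chromosome 7 the log2 ratios in that comparison were near each other, at -0.64 for Gabrg3 and -0.61 for Gabra5. Against C57BL6-BALB/c WT these 2 genes were further apart, at -1.14 and -0.70. On the X chromosome, within 586.6 kb, Gabre stood at 0.20, Gabra3 at -0.81 and Gabrq at -0.45 against C57BL6 WT.

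A test across genes was possible only with both WT libraries taken as 1 group, whose spread then includes the difference in background. With edgeR's quasi-likelihood test and Benjamini-Hochberg adjustment over 17576 genes, 0 of the 39 receptor genes tested had an adjusted p under 0.05, beside 0.0512% of all genes. The lowest adjusted p was 0.211 for Gabrb2 (log2 fold change -1.50 in edgeR), followed by 0.231 for Grin2a (-2.11), 0.268 for Gabra2 (-1.05), 0.272 for Grin2b (-1.26) and 0.289 for Gabra4 (-0.93). At an unadjusted p under 0.05 in edgeR there were 19 of the 39, all lower in Cx30-/- vessels, beside 5.02% of all genes that were lower at that p. DESeq2 likewise gave 0 receptor genes with an adjusted p under 0.05 (0.0488% of all genes), 6 having no adjusted p, and 19 of 43 at an unadjusted p under 0.05 (3.77% of all genes). The edgeR fit has 1 residual degree of freedom, and its common biological coefficient of variation was 0.210. That value includes the difference between the 2 WT backgrounds and is not a spread between replicates. Without the filter on low counts, edgeR called 2 receptor genes, with adjusted p-values of 0.00987 for Gabrb2 and 0.0338 for Grin2a, beside 0.601% of all genes.

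Genes that work with these receptors were looked at as lists. Of 13 auxiliary subunits of glutamate receptors that passed the count minimum, 2 were at least 2-fold lower against C57BL6 WT and 9 against C57BL6-BALB/c WT, with median log2 ratios of -0.66 and -1.28. Over all genes these shares were 1.12% and 4.39%. Neto1, an auxiliary protein of kainate receptors, had 567, 1049.9 and 337 normalized counts in C57BL6 WT, C57BL6-BALB/c WT and Cx30-/- vessels, and its relative Neto2 had 1215, 1371 and 587. On the log2 scale Neto2 stood at -1.05 and -1.22, and Neto1 at -0.75 and -1.64. Cacng5, which modulates AMPA receptors, stood at -1.27 and -1.26, and Cacng3, another AMPA receptor partner, at -0.63 and -1.38.

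Of 21 postsynaptic scaffold genes, 0 were at least 2-fold lower against C57BL6 WT and 4 against C57BL6-BALB/c WT, with medians of -0.23 and -0.74. The 4 were the scaffolds Shank1 (-1.54), Dlg2 (-1.49), Shank2 (-1.28) and Dlgap2 (-1.13). Of 16 genes of transmitter synthesis and transport, 1 and 3 were at least 2-fold lower in the 2 comparisons, with medians of -0.39 and -0.61. Slc32a1, the transporter that fills vesicles with GABA, stood at -1.08 and -1.04, while Slc17a6, a glutamate counterpart, and Gad2, which makes GABA, were past 2-fold against C57BL6-BALB/c WT at -1.17 and -1.29. Among receptor genes that the naming rule leaves out, 5 of 9 passed the minimum. Of these, 1 and 2 were at least 2-fold lower in the 2 comparisons, beside 1.12% and 4.39% of all genes. Their medians were -0.68 and -0.77. Grid1, a delta glutamate receptor, stood at -1.06 and -1.32, and Gabbr2, a subunit of the GABA-B receptor, at -0.75 and -1.05.

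Neuronal marker genes were lower in the same library. Of the 10 neuron genes, 9 were lower by any amount in Cx30-/- vessels in each comparison, and their median log2 ratio against C57BL6-BALB/c WT was -0.76. In C57BL6-BALB/c WT against C57BL6 WT their median was 0.21. Endothelial genes lay on the other side: all 8 were higher in Cx30-/- vessels in each comparison, with medians of 0.20 and 0.85. Lists of neuron subtypes had medians of -0.43 and -1.19 (forebrain excitatory), -0.97 and -1.32 (striatal) and -0.49 and -0.86 (inhibitory). The list of cerebellar granule cells, with 4 genes compared, had medians of 0.14 and 0.17, but its genes were split. Zic1 (0.43 and 0.44) and Zic2 (0.59 and 0.85) were higher, and Cbln1 (-0.89 and -0.92) and Neurod1 (-0.15 and -0.11) were lower. The astrocyte list had medians of -0.24 and -0.04, the oligodendrocyte list of -0.40 and -0.33, and the list of mural cells, the muscle cells and pericytes of vessels, of 0.23 and 0.43. The part of the neuronal content in the receptor ratios was not tested.

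**Figure D4:**
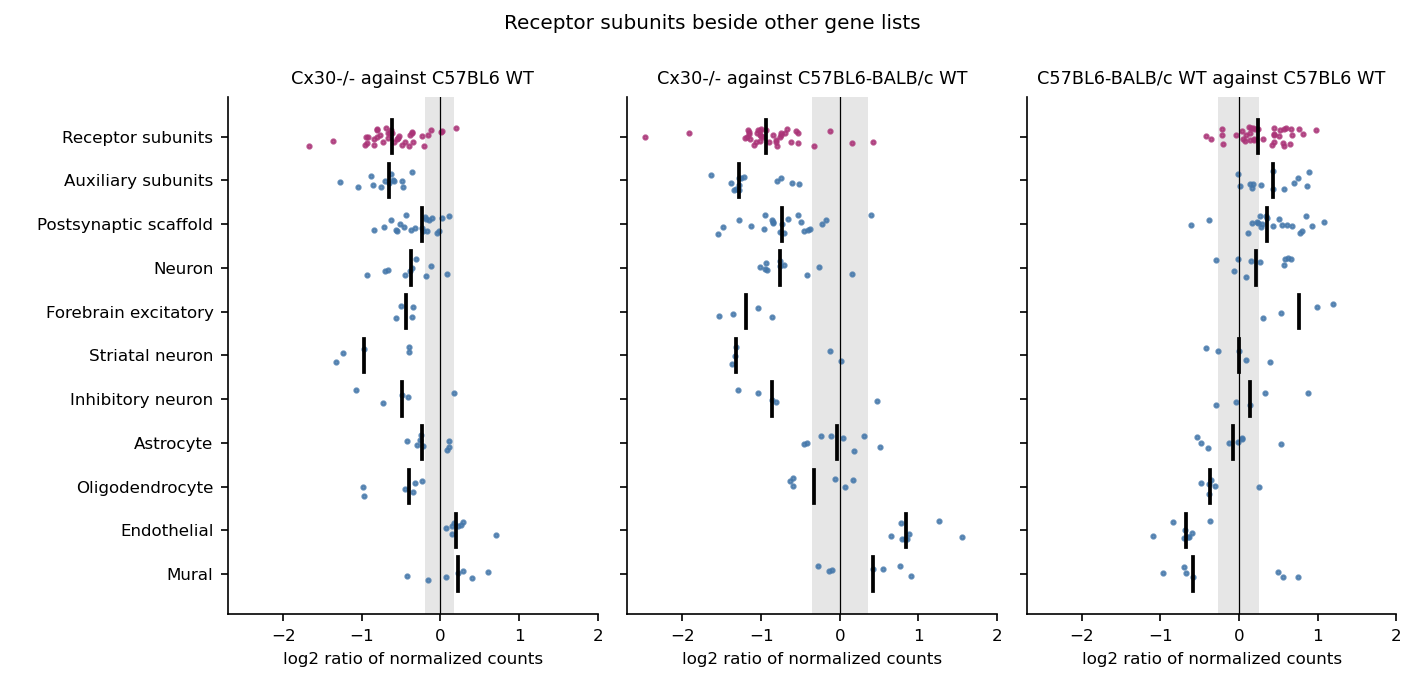
Log2 ratio of normalized counts (x axis) for each gene (points) of the receptor set (purple) and of 10 other lists (blue), in the 3 comparisons; black bars are medians and the grey band spans the middle 50% of all genes. The receptor, auxiliary and neuron medians lie left of 0 in both Cx30-/- panels (-0.61 and -0.94 for the receptors), where the endothelial genes lie to the right, and the sides are exchanged in the panel of the WT libraries.

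The receptor ratios were also set relative to those of the neuron genes. This scaling was chosen after the values were seen. The 10 neuron genes lay between -0.94 and 0.08 against C57BL6 WT and between -1.01 and 0.15 against C57BL6-BALB/c WT. Their medians were -0.37 and -0.76. Their mean log2 ratio, used for the scaling, was -0.40 against C57BL6 WT and -0.66 against C57BL6-BALB/c WT. Beyond it, the median of the receptor genes was -0.21 and -0.28. Of the 37 genes, 25 were lower and 12 higher against C57BL6 WT, and 29 lower and 8 higher against C57BL6-BALB/c WT. The scaling shifts every gene by the same amount, and before it all genes had medians of -0.01 and 0.00. The share of all genes lower or higher after it was not counted. AMPA and kainate receptor genes had medians of 0.06 and 0.04 beyond the neuron genes against C57BL6 WT, and of -0.12 and -0.15 against C57BL6-BALB/c WT. NMDA receptor genes had medians of -0.14 and -0.39, and GABA-A alpha genes of -0.44 and -0.34. Single genes of these families overlapped: against C57BL6 WT, kainate receptor genes lay between -0.33 and 0.42 and NMDA receptor genes between -1.27 and 0.41. Differences between the families were not tested. Grin2a was at least 2-fold lower beyond the neuron genes in both comparisons, at -1.27 and -1.82, and Gabrb2 in the latter, at -1.25. Gabre stood past 2-fold higher against C57BL6-BALB/c WT, at 1.08, but this includes the shift of 0.66 given to every gene. Before scaling, Gabre stood at 0.42 [-0.05, 0.90], an interval that holds 0. The share of all genes at least 2-fold higher under this scaling was not computed.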

How the data were processed

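Polyadenylated RNA of isolated brain vessels was sequenced as 50-base single reads without strand information, in 3 libraries grouped by their labels. According to the methods and the submitters' processing notes, reads were called with CASAVA 1.8.2, filtered and aligned with Bowtie to mm10, and those matching more than once were removed. For each of 82813 transcripts, the authors deposited the raw count of alignments on its exons, without normalization, and that count divided by a library total, as a fraction (20654144 to 24830975); the fraction and the bases without a read were used only to describe depth and coverage. Reads on shared exons count for every transcript. The positions in the files reach 197054592 on chromosome 1, past the last GENCODE M21 gene (195323493), so names and coordinates are from GENCODE M21 (GRCm38) by transcript identifier, for 69375 transcripts (83.8%).

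Normalized counts are counts over a size factor from median ratios (1.15 for C57BL6 WT, 0.926 for C57BL6-BALB/c WT and 0.953 for Cx30-/-). Genes with a mean of at least 50 normalized counts were compared at a 2-fold threshold, after the thresholds of the study. Intervals are exact conditional binomial intervals (scipy 1.17.1). The test across genes used the quasi-likelihood method of edgeR 4.0.16 (R 4.3.3) after filterByExpr and TMM, with DESeq2 1.42.0 as an alternative, and was tested on simulated data. A few receptor genes are counted but not reported by name here. Full values are given for the other receptor genes past 2-fold, for Grin2a and Gria2, and for the most abundant gene of each family per kilobase. From other lists, up to 4 genes past 2-fold are named. Members and lists were chosen with earlier results of these data known.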

Additional observations from a re-analysis of the deposited data

How the results depend on the processing

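With 1 library per group, no replicate could be left out, and no call rests on a spread between animals. No paired analysis was possible because each group holds 1 library. The 50-count minimum leaves 6 receptor genes without a ratio, and Grin2a rests on 17 counts in Cx30-/- vessels. Against C57BL6-BALB/c WT, the count of 16 genes past 2-fold became 10 when scaled to each library's total over the gene rows used. It became 30 at 1.5-fold, 1 at 4-fold and 3 (2 lower and 1 higher) when scaled to the 10 neuron genes. In the same order, the shares of all genes lower past the threshold were 3.64%, 14.3%, 0.179% and 0.439%. The count of 16 stayed between 13 and 18 with TMM, upper quartile, a pseudocount of 1, the longest or summed rows and other minimums. Beside it, 4.07% to 7.95% of all genes were lower past 2-fold. The 18, with no minimum, were 17 lower and 1 higher. Against C57BL6 WT, the count of 2 became 1 at a minimum of 100 and 4 (3 lower and 1 higher) with no minimum (pseudocount of 1). It became 20 at 1.5-fold, 0 at 4-fold and 1 with neuron scaling. The shares of all genes lower past the threshold were 0.888%, 3.31%, 5.65%, 0.0619% and 0.274% in the same order. Between the WT libraries, the count of 0 became 1 (higher) with the longest row and 3 (1 lower and 2 higher) with no minimum. At 1.5-fold it became 7, all higher. The shares of all genes lower under these 3 settings were 1.86%, 3.77% and 7.86%. Shares of all genes higher were not computed for any alternative setting. Neuron scaling, added after seeing the data, moved the medians to -0.21 against C57BL6 WT, -0.28 against C57BL6-BALB/c WT and -0.015 between the WT libraries. Without the filter, edgeR called 2 receptor genes in place of 0. Neuron scaling turned the sign of 9 of the 37 compared receptor genes against C57BL6 WT (among them Grik5 to 0.17, Grin1 to 0.0035 and Grm4 to 0.06), of 6 against C57BL6-BALB/c WT (among them Grin2c to 0.34 and Grm3 to 0.53) and of 13 between the WT libraries. No ratio past 2-fold turned its sign under the alternatives run. The causes of the other shifts were not tested.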
